A study of Mus musculus with 13 samples.

Results

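Heart muscle genes were followed in mouse lung after 5 days of high or ordinary oxygen. The set held 10 genes of cardiac muscle, Myh6, Tnnt2, Tnni3, Actc1, Myl7, Myl4, Nppa, Sln, Ryr2 and Mybpc3, chosen by name as genes of the muscle that sheathes the pulmonary veins, and all 10 were found among the 32544 gene symbols of the count table. The data were 13 Quant-seq libraries, in which reads come from the 3′ end of polyadenylated RNA, made from perfused lung of wild-type (WT) C57BL/6J male mice bought at 7 weeks of age. Normoxia was 21% oxygen (n = 7 libraries) and Hyperoxia was 80% oxygen (n = 6), each for 5 days, with no other agent or allele in either group. The labels do not tie libraries to single animals, so the p-values measure the spread between these libraries.

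In rodents the wall of the pulmonary veins inside the lung carries a sheath of cardiac muscle that continues from the left atrium. It contracts as the atrium does: myosin heavy and light chains form the thick filament, actin with the troponin complex forms the thin filament, and calcium leaves the sarcoplasmic reticulum through the ryanodine receptor and is pumped back by SERCA2, which sarcolipin and phospholamban inhibit. Atrial muscle cells also store and secrete atrial natriuretic peptide. Bulk RNA carries no position, so nothing in the files places these counts in the vein wall.

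The markers of other muscle bear on what kind of muscle was sampled. Of the ventricular markers, the transcription factor Irx4 had a count of 0 in all 13 libraries, the ventricular light chain Myl2 had at most 3 counts and Myl3 at most 9 counts in a library, and the natriuretic peptide Nppb at most 3. Only the slow myosin heavy chain Myh7, a near copy of Myh6 with which reads can be shared, was well counted among those 5 genes. It had 31.2 to 60.9 CPM in Normoxia, where the 5 genes summed to between 33.4 and 63.4 CPM. In Hyperoxia 1 to 5 Myh7 had 17.6, 12.4, 7.96, 18.2 and 10.6 CPM, where Myh6 had 1.07, 6.77, 0.692, 1.34 and 1.56 CPM. How many reads were shared was not tested. The 12 skeletal muscle markers summed to between 2.42 and 10.9 CPM (counts scaled to library size by TMM) in every library, with the fast myosins Myh2 and Myh4 at 0 throughout. The 4 atrial-type members, Myl7, Myl4, Sln and Nppa, summed to between 33.8 and 110 CPM in Normoxia and between 0.534 and 180 CPM in Hyperoxia. In Hyperoxia 1, which had the lowest atrial sum, the skeletal markers summed to 2.67 CPM and the ventricular ones, mainly Myh7, to 18.1 CPM. The cardiac transcription factor Nkx2-5 had a count of 0 in every library, so it could not be followed at this depth.

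Library totals ranged from 1607111 to 4540288 counts. Hyperoxia 6 was the deepest library, and Hyperoxia 1 stood apart from the rest, with a mean correlation of 0.779 with the other libraries where the others had 0.886 to 0.919. Results are given with all 13 libraries, without Hyperoxia 6, and without Hyperoxia 1 and 6. Hyperoxia 6 had an ordinary mean correlation (0.904) and was set apart by its levels of the members. It was the highest Hyperoxia library for them, so leaving it out lowers the Hyperoxia levels by construction. Among all genes tested, 11.8% were higher and 10.8% were lower in Hyperoxia with the 13 libraries, by edgeR's quasi-likelihood test at a Benjamini-Hochberg adjusted p under 0.05. Without Hyperoxia 6 these shares were 10.6% and 8.91%.

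Promoters of the members are textbook sites for the factors SRF, MEF2 and GATA4, whose part in these levels was not tested. The upstream sequences of 4 members are shown. They are the 250 bases before the RefSeq start on the gene's own strand (build GRCm38.p6), with capitals for exact matches on either strand of the MEF2 core CTANNNNTAG, the SRF-binding CArG box and the GATA core GATAA, which reads TTATC on the other strand. Myl7 (chr11:5898783-5899032, minus strand), Actc1 (chr2:114052876-114053125, minus strand) and Mybpc3 (chr2:91117894-91118143, plus strand) are the members that hold a CArG box or a MEF2 core, and Nppa (chr4:148000472-148000721, plus strand) is the member whose level stood furthest above Normoxia in Hyperoxia 6.
Myl7: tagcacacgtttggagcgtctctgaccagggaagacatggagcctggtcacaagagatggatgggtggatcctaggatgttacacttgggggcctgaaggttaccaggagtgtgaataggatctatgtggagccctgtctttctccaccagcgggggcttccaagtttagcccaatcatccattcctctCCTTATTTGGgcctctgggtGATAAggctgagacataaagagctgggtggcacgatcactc
Actc1: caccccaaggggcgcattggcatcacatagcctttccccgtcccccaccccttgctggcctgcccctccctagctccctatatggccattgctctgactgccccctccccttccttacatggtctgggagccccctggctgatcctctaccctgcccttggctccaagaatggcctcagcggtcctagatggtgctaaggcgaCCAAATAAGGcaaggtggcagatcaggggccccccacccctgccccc
Mybpc3: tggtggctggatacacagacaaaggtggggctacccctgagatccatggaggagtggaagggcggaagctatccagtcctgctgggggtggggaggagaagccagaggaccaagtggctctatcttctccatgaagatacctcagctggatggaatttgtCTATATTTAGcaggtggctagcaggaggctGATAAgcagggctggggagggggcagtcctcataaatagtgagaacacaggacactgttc
Nppa: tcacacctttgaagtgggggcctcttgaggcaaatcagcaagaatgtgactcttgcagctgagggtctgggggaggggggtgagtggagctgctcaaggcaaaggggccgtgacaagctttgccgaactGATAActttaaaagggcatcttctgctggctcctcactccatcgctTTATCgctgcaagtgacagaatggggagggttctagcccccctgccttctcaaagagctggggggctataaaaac
The CArG box of Myl7 lies 61 to 52 bases before the start, and that of Actc1 lies 47 to 38 bases before it. The MEF2 core of Mybpc3 lies 90 to 81 bases before the start, followed by a GATA core, and Nppa holds a GATA core on each strand. Of the 9 members with a window, which leaves out Sln, 3 held a CArG box or a MEF2 core, 4 held a GATA core (Tnnt2 was the fourth) and 7 held the E-box CANNTG. Over all 32851 RefSeq windows of this length, 1.47% held a CArG box, 3.20% a MEF2 core, 22.6% a GATA core and 66.2% an E-box. No motif in capitals overlaps another.

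The cardiac muscle signal was low in 5 of the 6 Hyperoxia libraries and high in the other one. The summed level of the 10 genes ranged from 103 to 320 CPM in Normoxia, with a median of 225 CPM (215 ± 73.5, SD, n = 7). In Hyperoxia 1 to 5 it was 6.94, 53.8, 21.1, 33.5 and 27.7 CPM (28.6 ± 17.2, SD, n = 5), and in Hyperoxia 6 it was 347 CPM. All of Hyperoxia 1 to 5 lay below the lowest Normoxia library, and Hyperoxia 6 lay above the highest. In counts the sums were 278 to 851 in Normoxia, 13 to 143 in Hyperoxia 1 to 5, and 1596 in Hyperoxia 6. In bulk RNA, fewer muscle cells in the piece and less RNA per muscle cell cannot be told apart.

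**Figure D1:**
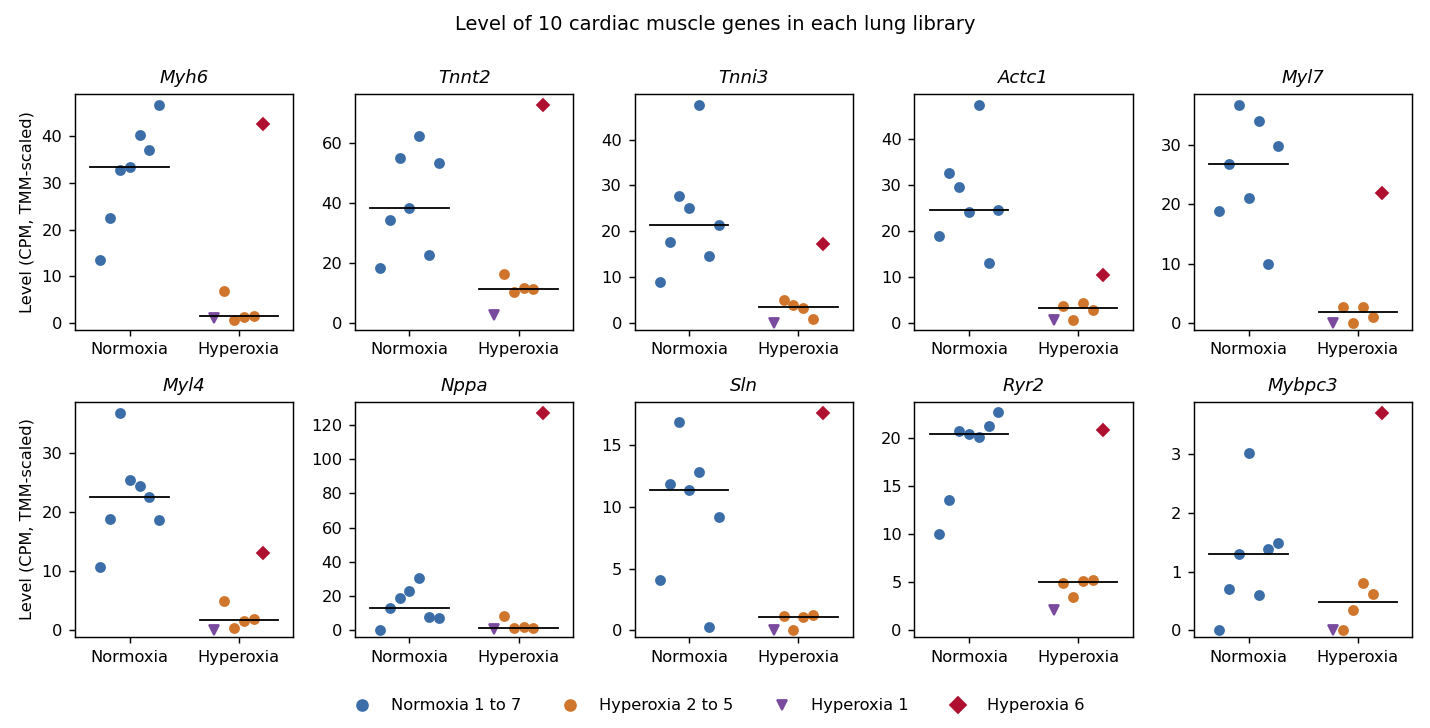
Level of each of the 10 cardiac muscle genes (vertical axes, TMM-scaled CPM, one scale per gene) in the 7 Normoxia and 6 Hyperoxia libraries; points are libraries and lines are group medians. Hyperoxia 6 (diamonds) lies apart from the other Hyperoxia libraries for most genes, most widely for Nppa at 127 CPM, while Actc1 has no overlap between the groups.

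With the 13 libraries, 5 members were lower in Hyperoxia (Tnni3, Actc1, Myl7, Myl4 and Ryr2) and 0 were higher, against 10.8% and 11.8% of all genes tested. By edgeR the other tested members, Myh6, Tnnt2, Sln and Nppa, did not pass, and Mybpc3 was too low for the count filter. The median log2 fold change of the 9 members that passed the filter was −1.74, and that of all genes −0.03. Without Hyperoxia 6, 9 members were lower and 0 higher, against 8.91% and 10.6% of all genes, with a median log2 fold change of −3.37. Leaving out Normoxia 7, Hyperoxia 2, Hyperoxia 4 or Hyperoxia 5 instead left 3 members lower, against 9.06%, 9.68%, 8.8% and 9.07% of all genes in those fits. Without Hyperoxia 1 and 6 together, 8 members were lower (11.4% of all genes), Nppa being the one that did not pass, and the median was −3.15.

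The groups overlapped in most members only through Hyperoxia 6. Without it, 7 members had every Hyperoxia library below every Normoxia library, as did 5.76% of all genes tested. With it, only Actc1 did, as did 5.19% of all genes tested. The libraries carry letters in their labels, B to M for Normoxia 1 to 5 and Hyperoxia 1 to 3, and O to S for the rest, and the comparison was made within each set. Within B to M, 8 members were lower, against 3.47% of all genes tested there. Within O to S, which holds Hyperoxia 6, 1 member was lower (10.3% of all genes), and 8 were lower there once Hyperoxia 6 was left out (7.89% of all genes).

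**Figure D2:**
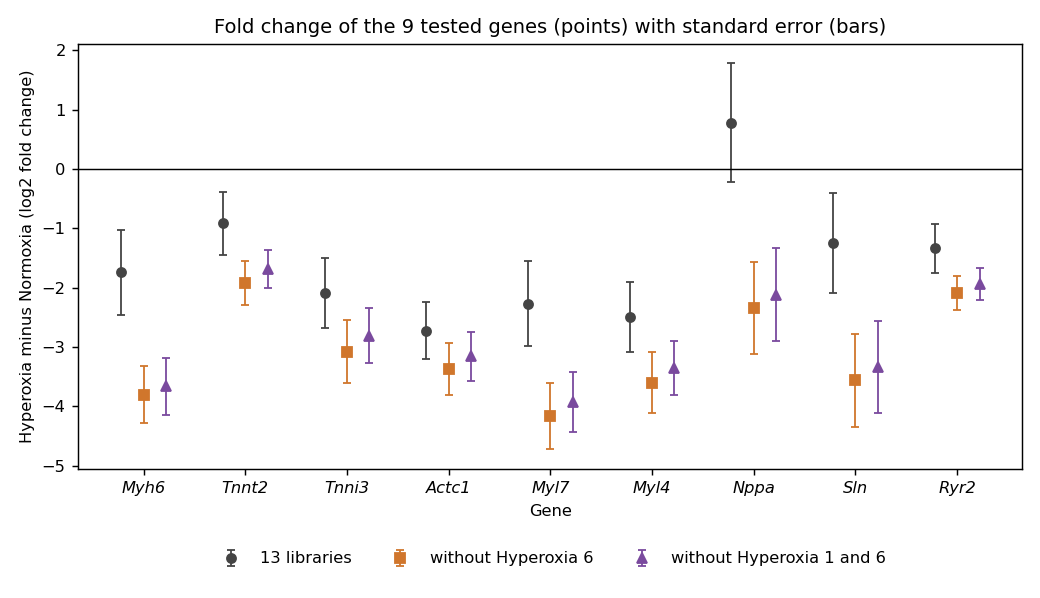
Log2 fold change of Hyperoxia against Normoxia (vertical axis) for the 9 tested members, from edgeR; bars are standard errors. Every member lies lower without Hyperoxia 6 (squares) than with all 13 libraries (circles), and Nppa crosses 0, from 0.78 to −2.34.

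Of the thick filament genes, Myl7 and Myl4 were lower by edgeR with the 13 libraries, Myh6 once Hyperoxia 6 was left out, and Mybpc3 in neither fit. Myh6 encodes the alpha myosin heavy chain, the motor of atrial muscle and of the adult mouse ventricle. Its level ran from 13.4 to 46.7 CPM in Normoxia, with a median of 33.5 CPM. In Hyperoxia 1 to 5 it was 1.07, 6.77, 0.692, 1.34 and 1.56 CPM, and in Hyperoxia 6 it was 42.6 CPM. The last value lies inside the Normoxia range and the others lie below it. The log2 fold change was −1.74 ± 0.72 (SE; adjusted p = 0.0947, edgeR) with the 13 libraries and −3.80 ± 0.49 (adjusted p = 0.000104) without Hyperoxia 6. With the 13 libraries the call depended on the method: Myh6 was lower by limma-voom (−3.03, adjusted p = 0.0073), by the exact permutation test (−3.00, adjusted p = 0.029) and by edgeR when letter set was fitted (−2.36, adjusted p = 0.0393).

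Myl7 and Myl4 encode the atrial regulatory and essential light chains of myosin. Myl7 ranged from 9.97 to 36.7 CPM in Normoxia (median 26.7 CPM). The Hyperoxia libraries had 0, 2.63, 0, 2.68, 0.933 and 22.0 CPM, in the order 1 to 6. Hyperoxia 1 and 3 thus gave no Myl7 count, which allows up to 3 counts by counting error alone. Myl7 was lower by a log2 fold change of −2.27 ± 0.71 (SE; adjusted p = 0.031, edgeR) with the 13 libraries and −4.17 ± 0.56 (adjusted p = 0.000137) without Hyperoxia 6. The first call was lost (adjusted p = 0.0501 to 0.0613, edgeR) on leaving out Normoxia 3, 5 or 7 or Hyperoxia 2, 4 or 5. The change without Hyperoxia 6 was the largest change of any member in that fit.

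Myl4 ranged from 10.8 to 36.7 CPM in Normoxia (median 22.4 CPM). Hyperoxia 1 to 5 had 0, 4.89, 0.346, 1.61 and 1.87 CPM, and Hyperoxia 6 had 13.05 CPM. Hyperoxia 6 again fell inside the Normoxia range, here near its lower end. The log2 fold change of Myl4 was −2.49 ± 0.59 (SE; adjusted p = 0.00626, edgeR), and −3.60 ± 0.52 (adjusted p = 0.000259) without Hyperoxia 6.

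Mybpc3, the cardiac myosin-binding protein C that braces the thick filament, was barely counted. Its counts in Normoxia 1 to 7 were 0, 2, 4, 9, 1, 5 and 5. In Hyperoxia 1 to 6 they were 0, 0, 1, 3, 2 and 17. The groups overlap, and the highest count was again in Hyperoxia 6. In a fit with no count filter its log2 fold change was −0.24 ± 0.77 (SE; adjusted p = 0.871, edgeR), and −1.52 ± 0.82 (adjusted p = 0.262) without Hyperoxia 6, so a change was not detectable at this depth.

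Among the thin filament genes, Actc1 was the only member whose groups did not overlap in all 13 libraries. It encodes the cardiac alpha actin. Its level ranged from 13.02 to 47.5 CPM in Normoxia (median 24.5 CPM). It was 0.534, 3.76, 0.692, 4.29 and 2.80 CPM in Hyperoxia 1 to 5 and 10.4 CPM in Hyperoxia 6. Even that last library lay below every Normoxia library. Actc1 was lower by a log2 fold change of −2.72 ± 0.47 (SE; adjusted p = 0.000717, edgeR), and by −3.37 ± 0.44 (adjusted p = 0.000117) without Hyperoxia 6.

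Tnnt2 and Tnni3 encode cardiac troponin T, which holds the troponin complex to tropomyosin, and cardiac troponin I, which blocks contraction until calcium rises. Tnni3 ranged from 8.91 to 47.5 CPM in Normoxia (median 21.3 CPM). Hyperoxia 1 to 5 had 0, 4.89, 3.81, 3.21 and 0.933 CPM, and Hyperoxia 6 had 17.2 CPM. Only Hyperoxia 6 overlapped with Normoxia. The log2 fold change of Tnni3 was −2.09 ± 0.59 (SE; adjusted p = 0.0178, edgeR), and −3.08 ± 0.53 (adjusted p = 0.000985) without Hyperoxia 6.

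Tnnt2 ranged from 18.2 to 62.1 CPM in Normoxia (median 38.1 CPM). It stood at 2.67, 16.2, 10.4, 11.5 and 11.2 CPM in Hyperoxia 1 to 5, and at 72.6 CPM in Hyperoxia 6. Hyperoxia 6 therefore exceeded every Normoxia library for troponin T while it did not for troponin I. The log2 fold change of Tnnt2 was −0.92 ± 0.53 (SE; adjusted p = 0.237, edgeR), and −1.92 ± 0.37 (adjusted p = 0.00228) without Hyperoxia 6, the smallest change of a member in that fit.

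Of the calcium genes, Ryr2, the channel that releases calcium from the sarcoplasmic reticulum, ranged from 10.02 to 22.8 CPM in Normoxia (median 20.4 CPM). The level was 2.13, 4.89, 3.46, 5.09 and 5.29 CPM in Hyperoxia 1 to 5, and 20.9 CPM in Hyperoxia 6. Hyperoxia 6 stood within the upper part of the Normoxia range and the others stood below it. The log2 fold change of Ryr2 was −1.34 ± 0.42 (SE; adjusted p = 0.0295, edgeR), and −2.09 ± 0.29 (adjusted p = 0.000198) without Hyperoxia 6. The first call was lost (adjusted p = 0.0528 to 0.061, edgeR) on leaving out Normoxia 7 or Hyperoxia 2, 3, 4 or 5.

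Sln encodes sarcolipin, a small inhibitor of the calcium pump that in the mouse heart belongs to the atria. It ranged from 0.277 to 16.9 CPM in Normoxia (median 11.4 CPM), the lowest value being a single count in Normoxia 6. Hyperoxia 1 to 5 had 0, 1.13, 0, 1.07 and 1.24 CPM, and Hyperoxia 6 had 17.6 CPM. Through Normoxia 6 the groups overlap even without Hyperoxia 6. The log2 fold change of Sln was −1.25 ± 0.84 (SE; adjusted p = 0.317, edgeR), and −3.56 ± 0.78 (adjusted p = 0.00506) without Hyperoxia 6.

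Nppa, which encodes atrial natriuretic peptide, was the member that separated Hyperoxia 6 most from all other libraries. Its counts in Normoxia 1 to 7 were 0, 38, 59, 69, 50, 28 and 25. In Hyperoxia 1 to 5 they were 1, 23, 4, 7 and 4, and in Hyperoxia 6 the count was 584. At 127 CPM, Hyperoxia 6 was 4.17 times the highest Normoxia library and 91.8 times the median of the other Hyperoxia libraries. Normoxia 1 gave no Nppa count although it had 36 counts of Myh6 and 51 of Myl7.

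The call on Nppa rested on a single library. Its log2 fold change was 0.78 ± 1.00 (SE; adjusted p = 0.626, edgeR) with the 13 libraries, −2.34 ± 0.78 (adjusted p = 0.0476) without Hyperoxia 6, and −2.12 ± 0.78 (adjusted p = 0.0579) without Hyperoxia 1 and 6. Bmp10, a ligand made in the adult heart chiefly by atrial muscle and named here after its values were seen, had the same outlying library. It had 27 counts in Hyperoxia 6, 1 count in Normoxia 4 and 0 in the other libraries. Whether that lung carried a piece of atrium was not tested, which bears on every value of Hyperoxia 6 given here.

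The shares of the members in Hyperoxia 6 were set beside those in Normoxia. Nppa made up 36.6% of the summed count of the 10 genes in it (95% Wilson interval 34.3% to 39.0%, counting error only, as reads carry no molecular identifiers in these counts), against 0 to 10.3% in the Normoxia libraries. Actc1 made up 3.01% of the sum there and 8.64% to 18.3% in Normoxia. Relative to the highest Normoxia library, the level in Hyperoxia 6 was 0.22 times for Actc1, 0.355 times for Myl4, 0.362 times for Tnni3, 0.598 times for Myl7, 0.913 times for Myh6, 0.917 times for Ryr2, 1.04 times for Sln, 1.17 times for Tnnt2 and 1.23 times for Mybpc3.

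The ratios of members in the Hyperoxia libraries with little cardiac signal are given as counts per count of Myh6, and none was tested. Nppa gave 0 to 0.758 counts per Myh6 count in Normoxia, 0.5, 1.28, 2, 1.4 and 0.8 in Hyperoxia 1 to 5, and 2.98 in Hyperoxia 6. Tnnt2 gave 0.612 to 1.67 counts for each count of Myh6 in Normoxia and 1.70 in Hyperoxia 6. In Hyperoxia 1 to 5 the ratios were 2.50, 2.39, 15, 8.60 and 7.20, all above the Normoxia range. Ryr2 gave 0.487 to 0.75 counts per Myh6 count in Normoxia, 0.49 in Hyperoxia 6, and 2, 0.722, 5, 3.80 and 3.40 in Hyperoxia 1 to 5. The Myh6 counts beneath these ratios were 2, 18, 2, 5 and 5, so each ratio has a wide counting error. For Actc1 the ratios were 0.351 to 1.45 in Normoxia and 0.245 in Hyperoxia 6, while Hyperoxia 1 to 3 lay inside the Normoxia range at 0.5, 0.556 and 1, and Hyperoxia 4 and 5 lay above it at 3.20 and 1.80.

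**Figure D3:**
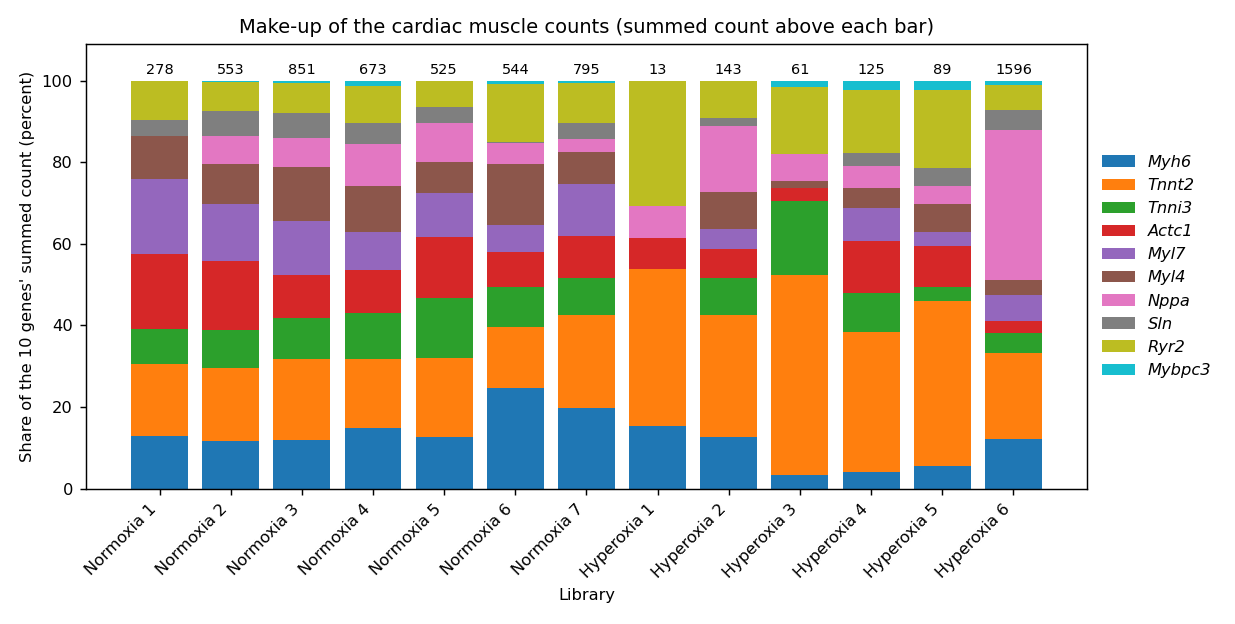
Share of each member (vertical axis, percent) in the summed count of the 10 cardiac muscle genes in each library, with that summed count printed above the bar. Tnnt2 takes between 15.1% and 22.6% in Normoxia and between 30.1% and 49.2% in Hyperoxia 1 to 5, and Nppa takes 36.6% in Hyperoxia 6.

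Members covaried among Normoxia libraries, though not as a single block. Over the 7 libraries all 36 pairs of the 9 tested members had a positive Pearson's r of log2 CPM, with a median of 0.69. Myh6 and Ryr2 followed each other (r = 0.97), and so did Myl7 and Sln (r = 0.94), Myl7 and Actc1 (r = 0.87) and Actc1 and Sln (r = 0.84). Between those sets r was near 0, at 0.08 for Myh6 with Sln, 0.18 for Myh6 with Myl7 and 0.04 for Sln with Ryr2. Normoxia 6 holds this contrast, with 134 counts of Myh6 and 77 of Ryr2 but 1 of Sln and 36 of Myl7. It had the lowest levels of Sln, Myl7 and Actc1 in Normoxia. The split may rest on that library, and r without it was not computed.

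The relation of each member with Myh6 was tested by exact two-sided permutation of the pairings, 16 relations in all with Benjamini-Hochberg adjustment over both r and rho. In Normoxia r ranged from 0.08 to 0.97 over the 8 members with a median of 0.69. The pair with the largest r, Myh6 with Ryr2 (Pearson's r = 0.97, exact permutation p = 0.00317, adjusted p = 0.0667; Spearman's rho = 0.75, exact permutation p = 0.0663, adjusted p = 0.162; n = 7), did not pass. Without Normoxia 1 and 2, the libraries farthest from the median of Myh6, that r was 0.67 and the median over the 8 members was 0.06, so the covariation with Myh6 rested mostly on those libraries.

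In Hyperoxia the 36 pairs had r between 0.75 and 0.98, with a median of 0.92 over 6 libraries. Myh6 with Nppa had Pearson's r = 0.98 (exact permutation p = 0.0139, adjusted p = 0.0741) and Spearman's rho = 0.71 (exact permutation p = 0.136, adjusted p = 0.207). Without Hyperoxia 2 and 6, the libraries farthest from the median of Myh6, the r of Myh6 with Nppa was 0.14 over 4 libraries, and the median over the 8 members was 0.64. Without them r fell to between −0.28 and 0.18 for Tnni3, Nppa and Tnnt2. It was 0.57 for Ryr2 and between 0.72 and 0.87 for Myl4, Myl7, Actc1 and Sln. The libraries left, Hyperoxia 1, 3, 4 and 5, had 2, 2, 5 and 5 counts of Myh6. Hyperoxia 1 and 3 carry letters B to M and Hyperoxia 4 and 5 O to S, so r cannot be told apart from a letter set difference. Of the 16 relations, 0 passed in either measure, and the smallest adjusted p was 0.0667 in both groups.

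**Figure D4:**
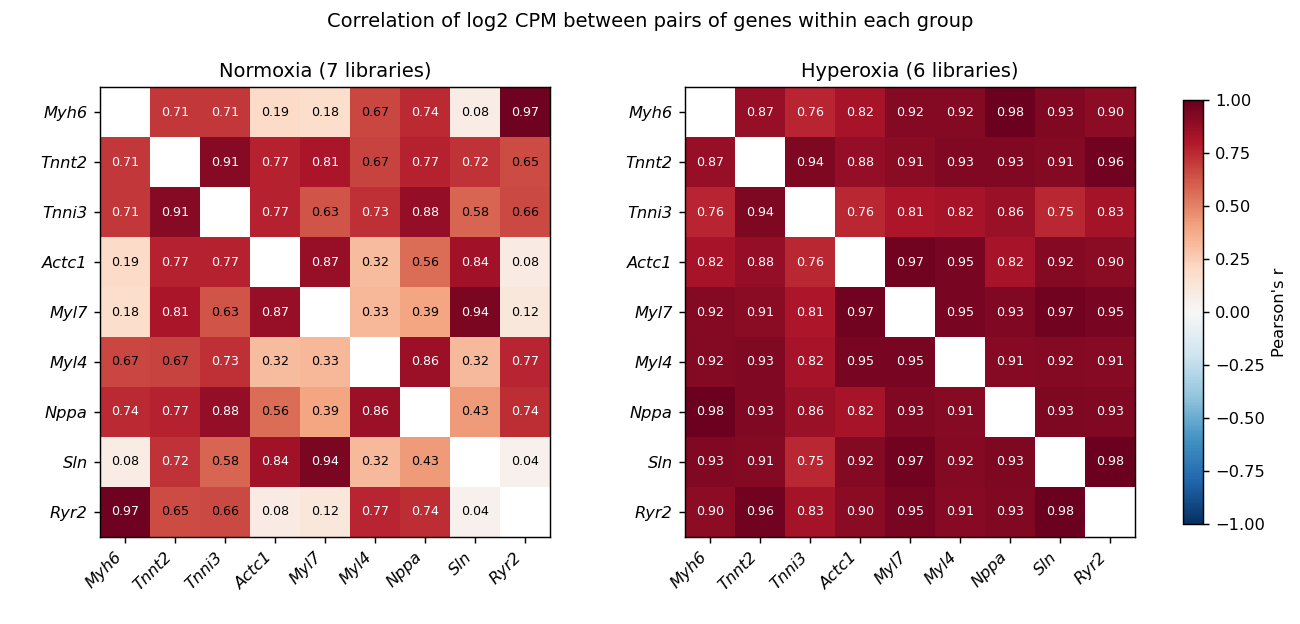
Pearson's r of log2 CPM for each of the 36 pairs of tested members (rows and columns), within Normoxia and within Hyperoxia. In Normoxia, with Normoxia 6 included, r runs from 0.04 to 0.97, with Myh6 and Ryr2 near 0 against Sln and Myl7. In Hyperoxia, with Hyperoxia 6 included, it runs from 0.75 to 0.98.

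Genes were ranked by how like their level across the 13 libraries was to the members' mean log2 CPM. The 10 nearest by Pearson's r, a description over libraries that share the group difference, were Mb (0.951), Ckm (0.932), Myoz2 (0.930), Nup210 (0.907), Txlnb (0.905), Cox7a1 (0.904), Ttn (0.899), Dexi (0.896), Ifi47 (0.894) and Myh7 (0.892). After group means were subtracted, Mb (0.900), Myoz2 (0.864), Ckm (0.855), Cox7a1 (0.829) and Ttn (0.821) were again among the 10 nearest. Tnfsfm13, Slc35c1, Pygm, Nup155 and H2-Q7 made up the rest of that second list, at 0.813 to 0.856. Mb encodes myoglobin, Ckm the muscle creatine kinase, Myoz2 a Z-disc protein, Cox7a1 the muscle form of a cytochrome oxidase subunit and Ttn titin.

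A wider list of 66 heart muscle genes was read beside the members. Of the 34 that passed the count filter, 8 were lower and 5 higher with the 13 libraries (10.8% and 11.8% of all genes), with a median log2 fold change of −0.67. Without Hyperoxia 6, 15 of 36 were lower and 5 higher (8.91% and 10.6% of all genes), with a median of −0.89. Myoglobin (Mb) was lower by −2.49 ± 0.61 (SE, log2; adjusted p = 0.00797, edgeR) with the 13 libraries and −3.79 ± 0.60 (adjusted p = 0.000563) without Hyperoxia 6. Titin (Ttn), the spring of the sarcomere, ranged from 39.0 to 179 CPM in Normoxia and from 18.7 to 31.6 CPM in Hyperoxia 1 to 5, with 181 CPM in Hyperoxia 6. Its log2 fold change was −1.11 ± 0.53 (adjusted p = 0.147, edgeR) and −2.16 ± 0.34 (adjusted p = 0.000517) without Hyperoxia 6.

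Of the calcium-handling genes in the wider list, picked out here after their values were seen, Pln, Trdn and Casq2 were lower without Hyperoxia 6, and Atp2a2 and Cacna1c did not pass. Pln, which encodes the pump inhibitor phospholamban, was lower by −1.64 ± 0.49 (SE, log2; adjusted p = 0.0241, edgeR) and by −2.14 ± 0.48 (adjusted p = 0.00612) without Hyperoxia 6. Trdn, whose product triadin sits beside the ryanodine receptor, had −1.02 ± 0.53 (adjusted p = 0.187) and −2.10 ± 0.41 (adjusted p = 0.00234). Atp2a2, which encodes SERCA2 and is used by most cell types, had 0.30 ± 0.18 (adjusted p = 0.265) and 0.29 ± 0.19 (adjusted p = 0.319). Casq2, the calcium store protein of cardiac muscle, was tested only without Hyperoxia 6 and had −1.63 ± 0.55 (adjusted p = 0.0491). Cacna1c, a calcium channel of the cell surface shared with smooth muscle, had 0.07 ± 0.20 (adjusted p = 0.836) and 0.01 ± 0.22 (adjusted p = 0.971).

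The 5 genes that rose in both fits were Tpm1, Gja1, Cox6a2, Des and Ankrd1. Tropomyosin 1 (Tpm1), connexin 43 (Gja1) and desmin (Des) are also made by smooth muscle or other lung cells. Cox6a2, picked out after its values were seen, ranged from 27.7 to 85.3 CPM in Normoxia and from 121 to 405 CPM in Hyperoxia. Its log2 fold change was 1.87 ± 0.27 (SE, adjusted p = 0.000178, edgeR) and 1.93 ± 0.30 (adjusted p = 0.000466) without Hyperoxia 6. Ankrd1, a stretch- and stress-responsive transcriptional cofactor, ranged from 38.3 to 66.8 CPM in Normoxia and from 147 to 770 CPM in Hyperoxia, with no overlap. Its log2 fold change was 2.95 ± 0.33 (SE; adjusted p = 1.61e-05, edgeR) and 2.94 ± 0.35 (adjusted p = 5.36e-05) without Hyperoxia 6. The most abundant others, Nebl and Nexn, had 0.14 ± 0.15 (adjusted p = 0.561) and 0.37 ± 0.16 (adjusted p = 0.122).

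**Figure D5:**
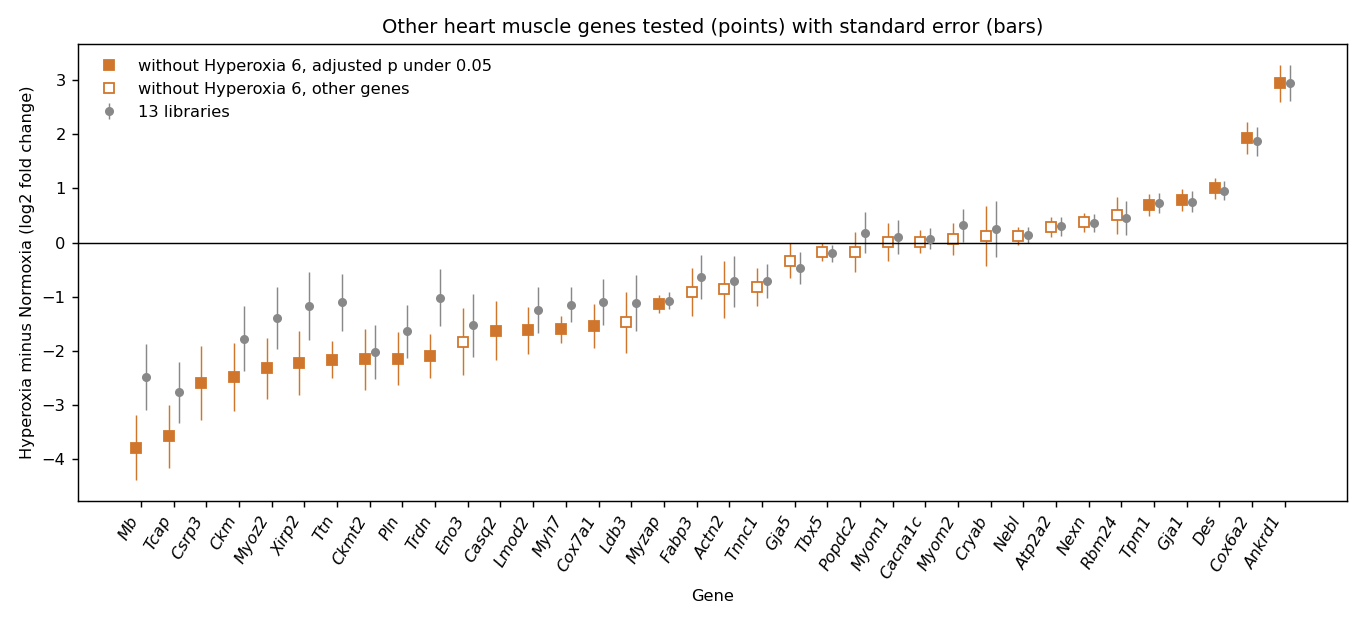
Log2 fold change of Hyperoxia against Normoxia (vertical axis) for the 36 genes of the wider heart muscle list that could be tested without Hyperoxia 6 (squares, filled where adjusted p was under 0.05), with the value from all 13 libraries (circles); bars are standard errors. Mb and Tcap lie lowest and Ankrd1 highest, and Hyperoxia 6 shifts mainly the genes on the left.

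Markers of neighbouring tissue moved with the groups as well, and their part in the result was not tested. Of the 6 pulmonary venous endothelial markers, 4 were lower (Slc6a2, Vwf, Cpe and Amigo2) and 1 higher (Prss23) with the 13 libraries (10.8% and 11.8% of all genes) and without Hyperoxia 6 (8.91% and 10.6%). Slc6a2, the noradrenaline transporter of vein endothelium, ran from 12.1 to 22.2 CPM in Normoxia and 3.11 to 8.05 CPM in Hyperoxia. It was lower by −1.88 ± 0.26 (SE, log2; adjusted p = 0.000125, edgeR), with 8.05 CPM in Hyperoxia 6, the highest of Hyperoxia yet below every Normoxia library. The summed level of those 6 genes was 697 to 893 CPM in Normoxia, 518 to 1235 CPM in Hyperoxia and 518 CPM in Hyperoxia 6, where Nr2f2, which did not pass, gave 297 CPM of it.

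Smooth muscle markers gave calls in the other direction. Of 6 tested, Acta2 and Cnn1 were higher and 0 were lower with the 13 libraries (11.8% and 10.8% of all genes), and the summed level was 231 to 312 CPM in Normoxia and 304 to 576 CPM in Hyperoxia, with 407 CPM in Hyperoxia 6. Of 4 fat, 3 mesothelial and 2 thymus markers tested, 1 in each list was lower (Retn, Lrrn4 and Cd8b1) and 0 were higher, where 10.8% of all genes were lower. The 4 squamous markers of oesophagus and trachea had at most 4 counts in sum in any library. Of the 7 lung markers, 3 were lower (Sftpc, Sftpa1 and Scgb1a1; 10.8% of all genes) and 4 did not pass (Sftpb, Ager, Pecam1 and Epcam). Their summed levels, to which Scgb1a1 and the surfactant genes contribute most, were 27064 to 77892 CPM in Normoxia, 4457 to 17543 CPM in Hyperoxia and 10105 CPM in Hyperoxia 6. Hyperoxia 6 thus lay within the range of the other Hyperoxia libraries for the summed lung markers and above it for the summed cardiac muscle genes.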

How the data were processed

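The authors deposited raw read counts per gene symbol for 13 lung libraries, made with kallisto in BioJupies; the submitters' notes name mm10 and limma 3.54.2. Counting strand is not given in the sources used here, so reads of overlapping genes (a partner on either strand for Myh6, Tnni3, Actc1, Myl4, Nppa and Ryr2) and of near copies (Myh6 and Myh7, Actc1 and Acta1) could be shared. A second deposited table of log10 values was not used. Groups came from the titles and treatment labels. Counts were scaled by TMM and tested with edgeR 4.0.16 (R 4.3.3; filterByExpr, quasi-likelihood test, two-sided) over 12496 genes, or 12658 without Hyperoxia 6, with Benjamini-Hochberg adjustment. CPM divides by the TMM-scaled total, and log2 CPM adds a prior count of 2. limma-voom (limma 3.58.1), DESeq2 1.42.0 and exact permutation tests over 1716 regroupings were alternatives. On data simulated with the same spread for every gene, edgeR recovered 100% of changed genes, with 4.76% false calls. The median log2 fold change it gave for the raised genes was 1.99. limma-voom and DESeq2 also recovered 100%, with 2.44% and 9.09% false calls, and the permutation test 82%, with 5.75%. The simulation held no outlying library like Hyperoxia 6, so these shares do not carry over to the members. The members and lists were chosen with earlier results of these data known; all members were described, with up to 5 genes of highest mean CPM per list and the 10 genes most like the members, and others are marked where named. Same-group libraries differed beyond sampling noise in all 36 pairs.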

Additional observations from a re-analysis of the deposited data

Results flagged for a closer look

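The 26 results examined were the 10 genes, their sum, the library total and the mean correlation with other libraries, in each group. An extreme library was flagged when its gap to its nearest neighbour, as a share of the group's range, exceeded Dixon's critical value. That value was 0.625 for 6 libraries and 0.568 for 7. Independent results would give about 1.3 flags by chance, but the members covary and the sum is built from them. There were 12 flags. In 10 of them Hyperoxia 6 was the highest Hyperoxia library, with gaps of 0.855 for Myh6, 0.807 for Tnnt2, 0.716 for Tnni3, 0.878 for Myl7, 0.625 for Myl4, 0.936 for Nppa, 0.929 for Sln, 0.832 for Ryr2, 0.783 for Mybpc3 and 0.862 for the summed level. Those 10 flags describe the same library, whose high levels in these genes are given above. Actc1 was the member without such a gap, though it fell only just short of the critical value. The total count of Normoxia 5 (1607111) was low among Normoxia, with a gap of 0.612. The mean correlation of Hyperoxia 1 with the other libraries was low among Hyperoxia, with a gap of 0.763.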

How the results depend on the processing

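The 5 members lower with 13 libraries were 5 or 6 under another scaling, another test, no count filter, a robust fit or the letter set as a term. Requiring 10 counts in every library removed every member before the test, so it gave no value. Within letters B to M 8 were lower, within O to S 1, and without Hyperoxia 1 and 6 (an alternative chosen after seeing the data) 8. Leaving out 1 library gave 3 to 9: 3 without Normoxia 7, Hyperoxia 2, 4 or 5, and 9 without Hyperoxia 6. The 9 lower without Hyperoxia 6 became 7 to 9, and no member was higher in any fit run, with or without Hyperoxia 6. Of the wider heart list, 8 lower became 2 with 10 counts in every library (15 tested; 13.6% of all genes), 5 within B to M (3.47%), 1 within O to S (10.3%), 17 without Hyperoxia 1 and 6 (11.4%), and 5 to 15 when 1 library was left out; 5 higher became 3 within B to M (5.34%). The replicate block left 5 members lower (Myh6 in, Myl7 out at adjusted p = 0.0593, edgeR), with 6 of the wider list lower and 4 higher (5.01% and 5.75% of all genes); same-numbered samples correlated at −0.33 to 0.27, so the numbers do not pair them. The log2 fold change of Nppa turned to −0.53 with limma-voom, −1.01 in the permutation test, −1.74 with the replicate block, −0.24 with the letter set, −2.18 within B to M and −2.12 without Hyperoxia 1 and 6, was 2.52 within O to S, and ran from −2.34 (without Hyperoxia 6) to 1.02 when 1 library was left out; that of Sln turned to 0.56 within O to S. The median r with Myh6 fell to 0.056 in Normoxia and 0.64 in Hyperoxia without the 2 farthest libraries. Counts of 0 to 43 per member in Hyperoxia 1 to 5 limit the precision; beyond the number of libraries left, the causes were not tested.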
